A study of Homo sapiens with 267 samples.

Results

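The ERK feedback genes described here were SPRY2, SPRY4, SPRED1, SPRED2, DUSP4, DUSP5, DUSP6, ETV4 and ETV5, 9 of the 63677 genes in the count table, chosen by symbol and found by their Ensembl identifiers. ERK is the last kinase of the RAS, RAF, MEK and ERK cascade, which carries signals from receptors and oncogenic tyrosine kinases to the nucleus. Active ERK raises transcription of genes whose products damp the same cascade. Sprouty and SPRED proteins hold back RAS and RAF, dual-specificity phosphatases (DUSP) remove phosphate from ERK, and the ETS factors ETV4 and ETV5 are transcription factors of the same output. K562 is an established human chronic myeloid leukaemia line whose BCR-ABL fusion kinase drives RAS and ERK, and imatinib is an inhibitor of that kinase.

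The study tested fixation of K562 cells with a reversible cross-linker before capture on the Fluidigm C1, a microfluidic chip on which RNA of single cells is turned into cDNA with SMARTer chemistry. The labels placed 267 libraries in 5 groups and 263 had a column in the count table. In the Hoechst run, 96 libraries came from untreated cells stained with Hoechst and propidium iodide, labelled with passages 90 to 92. In the imatinib run, 51 libraries were labelled CellTracker Green and untreated, and 45 were labelled CellTracker Orange and treated with 1 µM imatinib for 1 h. In the benzene run, 36 libraries with a column were labelled CellTracker Green and untreated, and 35 CellTracker Orange and treated with 10 mM benzene for 3 h. Passages of the CellTracker runs were labelled 20 to 22, and their cells also received a dead cell dye. The labels did not say which libraries came from fixed cells or from the bulk samples that were also sequenced, so the part of either in the values below was not tested. Within a run, dye and drug changed together and cannot be told apart. Each run and stain was 1 sample, and no difference had a replicate check or a test.

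A library was kept where at most 70% of its gene reads fell in its 500 highest genes, which held for 242. These were 82 of the Hoechst run, 50 Green and 45 Orange of the imatinib run, and 31 Green and 34 Orange of the benzene run. Depth was 50358 to 2043351 reads on genes per kept library, with group medians from 1231546 to 1345125. The median number of genes with more than 2 reads was 8082 in Green and 7797 in Orange of the imatinib run, and 5963 and 5860 in the benzene run. No libraries had identical counts. Of 10 markers of K562 cells, 9 or 10 were detected in most libraries of every group, with GATA1 in 91.2% to 100% of the libraries of a group. Of the markers of other cell types, MS4A1 was detected in no library, CD3E, CD14 and COL1A1 in at most 4.44% of a group, and PTPRC and EPCAM in 73.5% to 91.1%. PECAM1, also on that list, was not found by symbol.

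Promoter sequences are shown first because genes of ERK feedback are known to share regulators. Capicua is a repressor that binds octamers related to TCAATGGA and is inactivated by ERK, and ETS factors bind around the letters CCGGAA. Promoters of SPRY2, SPRY4, SPRED1, SPRED2 and DUSP6, 5 of the 9 genes, were found in the RefSeq table on build GRCh38.p14. The sequences run from 250 bases before to 30 bases after the start. Capitals mark matches to the motifs searched on both strands, which were the Capicua octamers TGAATGAA, TGAATGGA, TCAATGAA and TCAATGGA, the ETS core CCGGAA, the CRE motif TGACG and the AP-1 site TGANTCA, whose first letters it shares with the CRE motif. The GC box GGGCGG (45% of windows) and the TATA box TATAAA (11.5%) were also searched and are left in lower case.
DUSP6 promoter, chr12:89352472-89352751, minus strand: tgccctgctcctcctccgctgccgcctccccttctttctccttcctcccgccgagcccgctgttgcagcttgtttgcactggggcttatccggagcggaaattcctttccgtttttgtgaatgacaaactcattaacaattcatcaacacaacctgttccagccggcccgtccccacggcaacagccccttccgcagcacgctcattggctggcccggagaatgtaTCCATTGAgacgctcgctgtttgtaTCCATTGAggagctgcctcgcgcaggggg
SPRY4 promoter, chr5:142324218-142324497, minus strand: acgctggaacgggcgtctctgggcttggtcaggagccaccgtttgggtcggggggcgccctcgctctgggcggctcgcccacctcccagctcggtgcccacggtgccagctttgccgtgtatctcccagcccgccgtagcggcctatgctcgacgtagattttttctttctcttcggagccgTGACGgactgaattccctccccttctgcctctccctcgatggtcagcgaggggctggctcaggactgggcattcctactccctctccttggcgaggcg
SPRY2 promoter, the first of 3, chr13:80341097-80341376, minus strand: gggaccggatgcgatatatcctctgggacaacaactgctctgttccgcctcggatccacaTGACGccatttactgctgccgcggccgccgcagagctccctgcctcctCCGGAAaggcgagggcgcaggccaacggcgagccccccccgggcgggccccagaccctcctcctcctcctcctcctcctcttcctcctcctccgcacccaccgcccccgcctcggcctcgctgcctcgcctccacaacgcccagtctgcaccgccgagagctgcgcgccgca
The DUSP6 promoter held the Capicua octamer TCAATGGA as TCCATTGA on the printed strand, starting at bases 227 and 252. That octamer was found in 0.51% of 35116 promoter windows of 300 bases. The CCGGAA in SPRY2 was shared with 17.2% of windows. TGACG, found in SPRY2, SPRY4 and a SPRED2 window that is not printed, was shared with 24.6%. These matches are thus common. The TGANTCA motif was found in a SPRED2 window and in 7.71% of all windows. The other Capicua octamers were in none of the 8 windows of these genes, and in 0.718% to 1.65% of all windows. These matches describe letters, and no binding was measured.

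Levels are given as CPM, the reads of a gene per 1000000 reads on genes, summed over the libraries of a group, and a gene is called detected in a library with more than 2 reads. Across the untreated libraries the genes fell into a well detected set (ETV4, ETV5, SPRED2 and, in part, SPRED1), a sparse set (SPRY4, SPRY2 and DUSP5) and genes that were almost absent (DUSP4 and DUSP6). Per kilobase of exonic length, the levels in the Hoechst run were 16.3 CPM for ETV4, 9.46 for ETV5, 6.42 for SPRED2, 2.33 for SPRED1, 1.31 for SPRY4, 1.08 for DUSP5, 1.05 for SPRY2 and 0.346 for DUSP6, and DUSP4 had no read. In Green libraries of the imatinib run ETV4 was again highest, at 11 CPM per kilobase, and SPRED2 (5.09) and ETV5 (5.06) were level. SPRY2 came next at 2.39 CPM per kilobase there, and 60.1% of its reads were from 1 library.

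**Figure D1:**
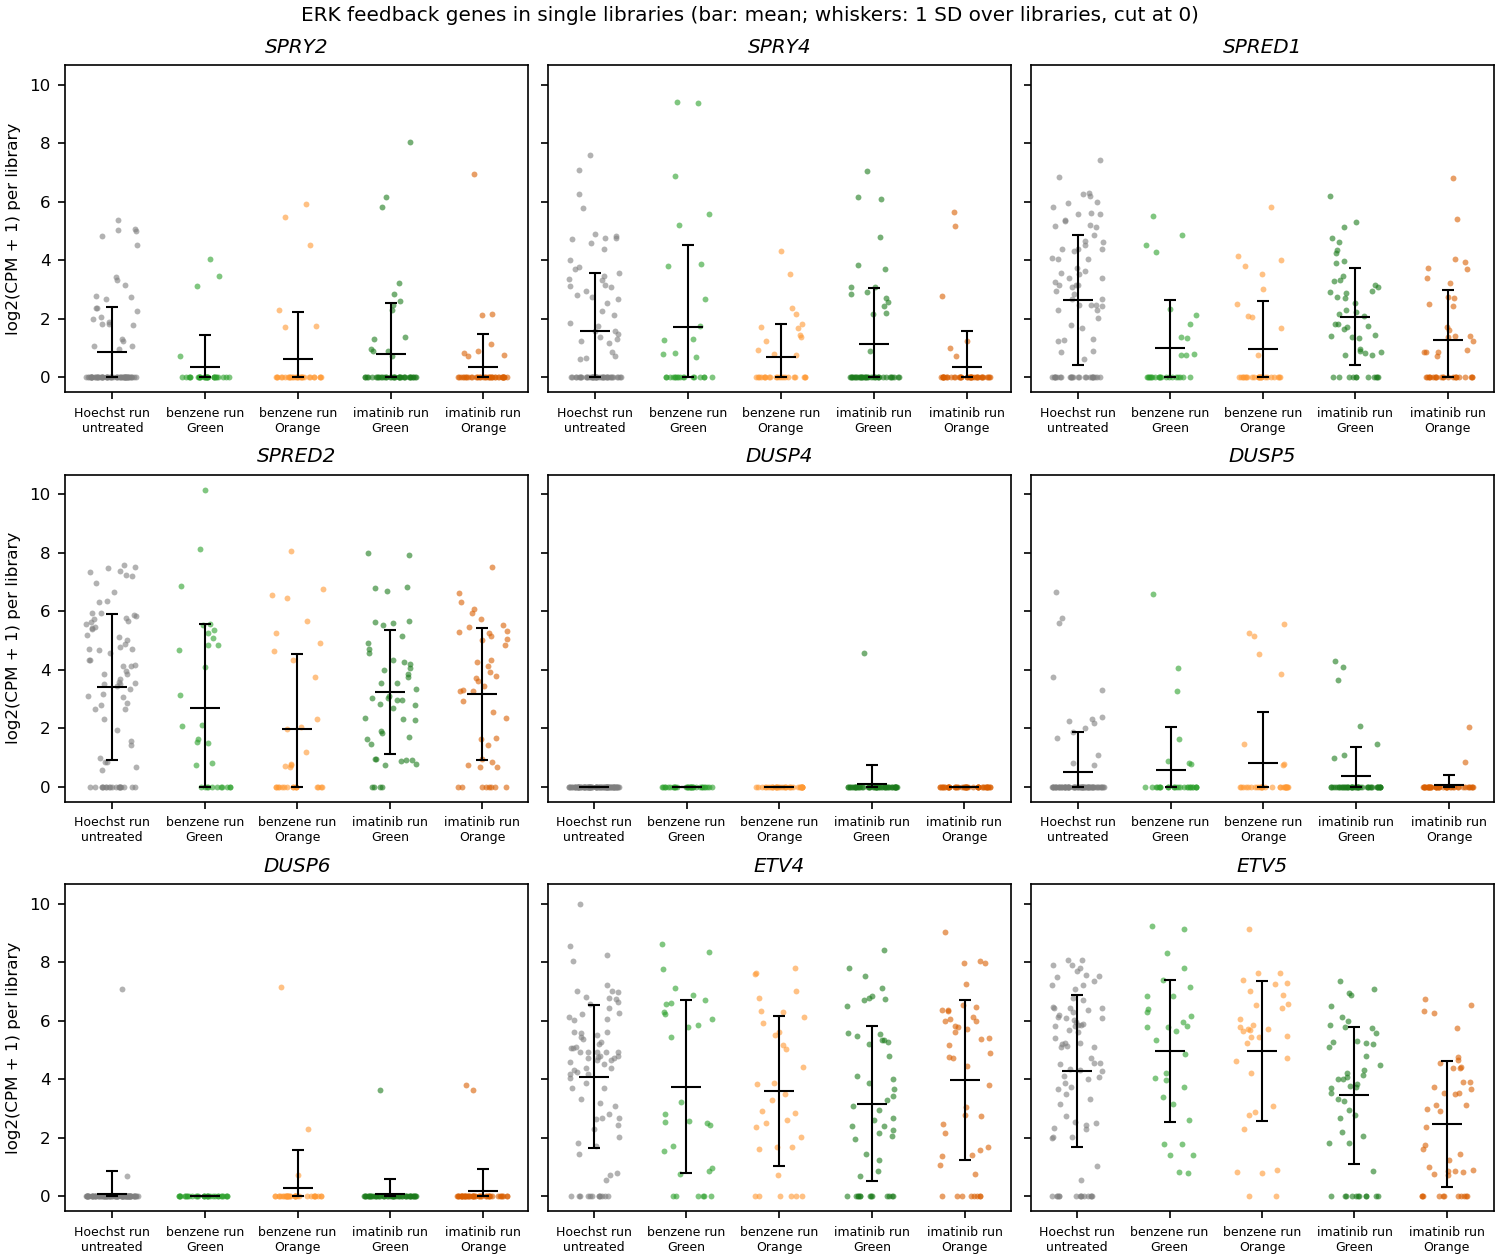
Level of each gene in single libraries, as log2(CPM + 1), by run and stain. Each point is 1 library, the long bar is the mean and whiskers are 1 SD over libraries, cut at 0. ETV4, ETV5 and SPRED2 are above 0 in most libraries, whereas DUSP4 has reads in 1 library and DUSP6 in few.

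Libraries held few of the genes at once. The mean number detected per library was 3.63 of 9 in the Hoechst run, 3.30 in Green and 2.44 in Orange of the imatinib run, and 2.90 in Green and 2.94 in Orange of the benzene run. Of the imatinib run, 22 of 50 Green and 7 of 45 Orange libraries had 4 or more of the genes. For the benzene run the numbers were 8 of 31 Green and 8 of 34 Orange. No like count was made over other genes. Orange libraries of the imatinib run also had fewer genes detected in all, with a median of 7797 against 8082 in Green.

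In the imatinib run the summed level was lower in Orange for 7 of the 9 genes, where 52.8% of all 10834 genes tested were below 0. A gene was tested in a run where at least 20% of the libraries had it. The ratio used is log2 of (CPM + 1) in Orange over that in Green. It was -1 or lower for SPRY2, SPRY4 and ETV5, 3 of the 9 (3.83% of all genes tested and 4.15% of 28752 genes without the filter), and 1 or higher for 0 (3.05%). The share without the filter, here and in the benzene run, includes genes under 1 CPM in Green. With a pseudocount of 1 CPM these cannot reach -1. The median over the 9 genes was -0.55, against -0.02 over all genes tested. It is the value of DUSP4, which had 29 reads in 1 Green library and 0 in Orange. With DUSP4 set at its bound the median was -0.97, the value of DUSP5, which had 69 reads in Green and 4 in Orange. Both medians thus rest on genes with few reads. Only SPRED1, SPRED2, ETV4 and ETV5 passed the filter in this run, of which 3 were below 0 and ETV5 at -1 or lower, with a median of -0.35. The share of libraries with the gene was lower in Orange by 20 percentage points or more for SPRY4, SPRED1 and ETV5, 3 of the 9 (1.42% of all genes tested), and higher by as much for 0 (0.997%). Of these 3, SPRED1 and ETV5 passed the filter. With every library thinned to 500000 reads, SPRY4 alone of the 9 was lower by as much, where 1.38% of all genes tested were. This second measure was added because the sums of several genes rested on few libraries. Its median over all genes tested was 0 points. Genes found in nearly all libraries can move little in it. The percents given for it, here and for single genes below, thus do not compare genes of like detection.

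Under the benzene labels the summed level was lower in Orange for 4 of the 9 genes, where 47.4% of 9530 genes tested were below 0. The median over the 9 was 0, which is the value of DUSP4 with no read in either stain. The ratio was -1 or lower for SPRY4 and SPRED2 (10.6% of all genes tested, 10.2% of 25007 without the filter) and 1 or higher for SPRY2 and DUSP6 (11.6%). The share of libraries moved by 20 points for none of the 9, lower (1.94% of genes tested) or higher (3.63%), with SPRED2 just outside the limit at -19.8 points. SPRY4, SPRED1, SPRED2, ETV4 and ETV5 passed the filter, of which 4 were below 0 and SPRY4 and SPRED2 at -1 or lower, with a median of -0.62 against 0.04 over all genes tested.

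**Figure D2:**
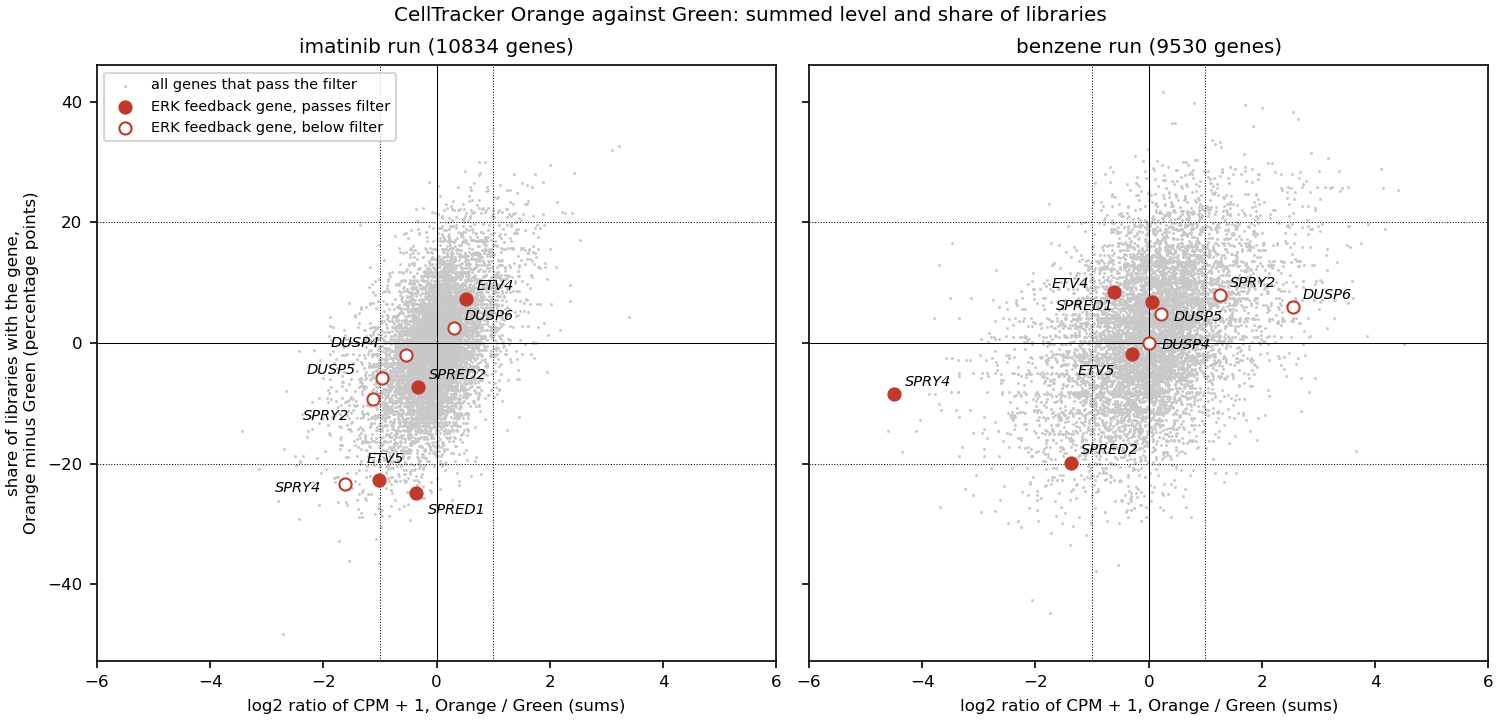
Orange against Green in the imatinib run (left) and the benzene run (right). The x axis is the log2 ratio of summed CPM + 1, the y axis the difference in the share of libraries with the gene in percentage points, grey points all genes tested and red circles the ERK feedback genes, open where the gene is detected in under 20% of libraries. In the imatinib run SPRY4, SPRED1 and ETV5 lie below -20 points, and in the benzene run none does.

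SPRY4 (ENSG00000187678, GRCh37 chromosome 5, 141689992 to 141706020, minus strand) encodes a Sprouty protein that restrains RAS to RAF signalling. In the imatinib run SPRY4 was detected in 15 of 50 Green libraries (30.0%, exact binomial 95% interval 17.9 to 44.6) and 3 of 45 Orange libraries (6.67%, 1.40 to 18.3). Per library, the lowest and median values were 0 CPM in both stains, and the highest was 133 CPM in Green and 49.6 in Orange. The stains overlapped library by library, since most libraries had no read. The intervals, which cover counting error only, overlapped narrowly. The summed level was 7.07 CPM in Green (exact Poisson interval 6.43 to 7.76) and 1.64 in Orange (1.32 to 2.01), a log2 ratio of -1.61. The largest library gave 33.2% of Green and 53.8% of Orange reads. With a pseudocount of 10 CPM the ratio was -0.55, and the mean of log2 values over libraries gave -0.76, both short of -1. Among all genes tested, 0.600% had a difference in share as low as its -23.3 points, though SPRY4 itself did not pass the filter. After thinning every library to 500000 reads the difference was -21.6 points.

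SPRY4 also had the lowest ratio of the set in the benzene run, -4.49, from 55.6 CPM in Green to 1.52 in Orange. It was detected in 9 of 31 Green and 7 of 34 Orange libraries, a difference of -8.44 points. Few libraries decided the sum. The largest library held 42.8% and the top 3 held 92.5% of the Green reads, with a highest value of 678 CPM against 19.1 in Orange. With the mean of log2 values over libraries in place of the sum, the difference was -1.02.

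SPRY2 (ENSG00000136158, chromosome 13, 80910111 to 80915261, minus strand) encodes another Sprouty and was sparser. It was detected in 8 of 50 Green and 3 of 45 Orange libraries of the imatinib run, with medians of 0 CPM and highest values of 266 and 122 CPM. The summed level was 7.68 CPM in Green and 3.00 in Orange, a ratio of -1.12, and 1 library gave 60.1% and 91.2% of the reads. Without the largest library of each stain the ratio was -1.70, and without libraries of more than 9500 genes it was -0.78. SPRY2 had a ratio of 1.26 in the benzene run, from 1.11 CPM in Green (3 of 31 libraries) to 4.04 in Orange (6 of 34). The top 3 libraries held 97.9% and 93% of these reads, and without the largest of each stain the ratio was 0.97. The opposite signs of SPRY2 in the 2 runs therefore rest on a few libraries in each.

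SPRED1 (ENSG00000166068, chromosome 15, 38545037 to 38649450, plus strand) encodes a SPRED protein that binds neurofibromin and brings it to RAS at the membrane. It was detected in 49 of 82 libraries of the Hoechst run. The imatinib run had it in 28 of 50 Green (56%, 41.3 to 70.01) and 14 of 45 Orange libraries (31.1%, 18.2 to 46.6), a difference of -24.9 points that 0.397% of genes tested matched or exceeded in the same direction. The median was 2.54 CPM in Green and 0.673 in Orange, with highest values of 73.4 and 111 CPM. The stains overlapped, and the intervals of the shares overlapped too. Its ratio of sums was small, -0.37, with 36.6% of the Orange reads from 1 library, and without the largest library of each stain it was -0.74. Thinning to 500000 reads reduced the difference in share to -7.78 points (22.2% against 30.0%). SPRED1 in the benzene run was at 3.97 CPM in Green and 4.17 in Orange, detected in 7 of 31 and 10 of 34 libraries.

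SPRED2 (ENSG00000198369, chromosome 2, 65537985 to 65659771, minus strand) encodes the related protein. SPRED2 was detected in the imatinib run in 37 of 50 Green and 30 of 45 Orange libraries, with medians of 7.25 and 9.93 CPM and highest values of 255 and 184 CPM. The sums were 28 and 22.1 CPM, a ratio of -0.33, and the groups overlapped over nearly all of their range. The benzene run gave a ratio of -1.38, from 59.7 CPM in Green to 22.3 in Orange, and 63.8% of the Green reads came from 1 library at 1147 CPM. Without the largest library of each stain the ratio was -0.64. The share of libraries was 58.1% (39.1 to 75.5) in Green and 38.2% (22.2 to 56.4) in Orange, and these intervals overlapped.

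The phosphatases were near the limit of these libraries. DUSP4 (ENSG00000120875, chromosome 8, 29190581 to 29208201, minus strand), a nuclear phosphatase of ERK, had 29 reads in 1 Green library of the imatinib run and 0 reads in the other kept libraries. It was thus found in 0 of 82 libraries of the Hoechst run, which allows a share of up to 3.66% by a floor of 3 libraries and 4.40% by the exact binomial interval. In Orange of the imatinib run it was found in 0 of 45, which allows up to 6.67% and 7.87%. With a floor of 3 reads over the group, Orange was at least 8.69-fold lower in the sums, a bound that rests on that 1 library. DUSP5 (ENSG00000138166, chromosome 10, 112257665 to 112271291, plus strand), also nuclear, had 69 reads in Green and 4 in Orange of the imatinib run, in 4 of 50 and 1 of 45 libraries, a ratio of -0.97. DUSP5 in the benzene run was at 3.60 and 4.35 CPM, in 4 of 31 and 6 of 34 libraries, and 77.6% of the Green reads came from 1 library. The ratio there was 0.22, and 1.17 without the largest library of each stain. DUSP6 (ENSG00000139318, chromosome 12, 89741012 to 89746278, minus strand), the cytoplasmic phosphatase of ERK whose promoter is printed above, had 15 reads in 1 Green and 30 reads in 2 Orange libraries of the imatinib run. In the Hoechst run 138 of its 139 reads were in 1 library. Its reads in the benzene run were 222 in Orange, 215 of them in 1 library, and 0 in Green, where 0 of 31 libraries allow a share of up to 9.68% by the floor and 11.2% by the exact interval. The fold was at least 68-fold higher in Orange against a floor of 3 reads over the group, and without the largest library of each stain the ratio was 0.21. Exons of an antisense transcript cover 28.6% of the exonic bases of DUSP6, and counting by strand was not stated, so its reads are uncertain.

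**Figure D3:**
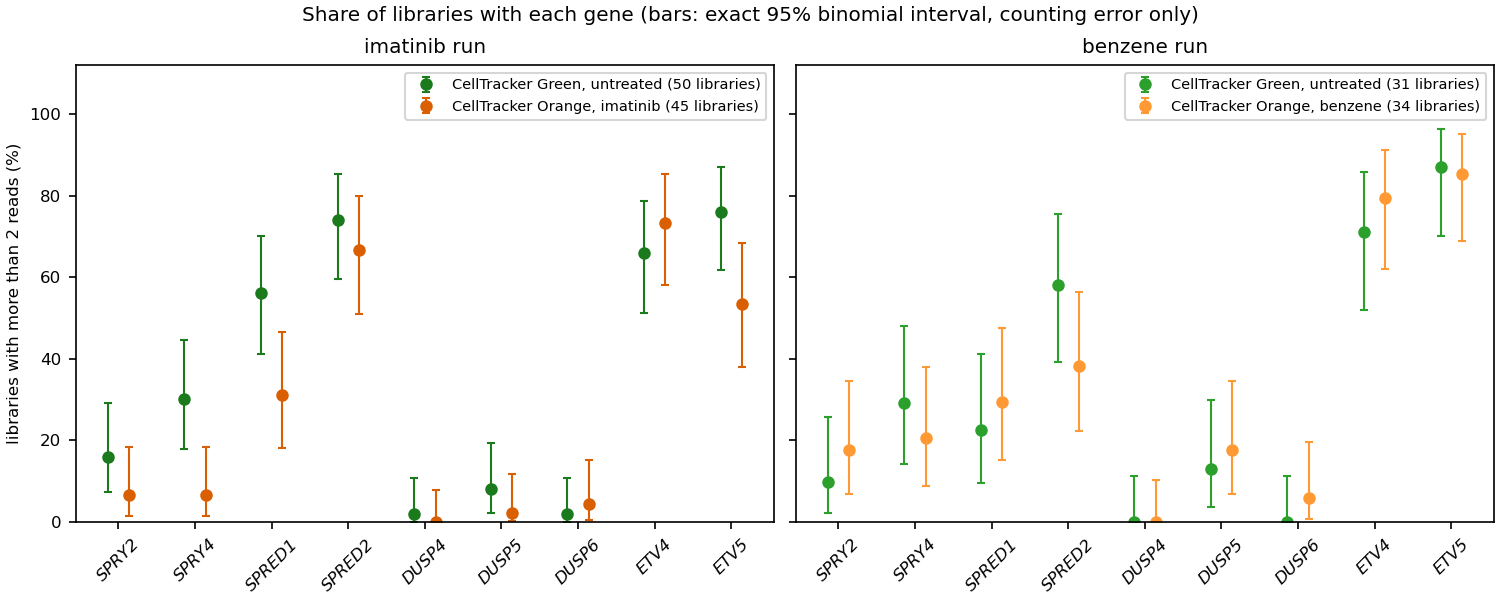
Share of libraries with more than 2 reads of each gene in the imatinib run (left) and the benzene run (right), Green and Orange side by side. Points are shares in percent and bars exact 95% binomial intervals, which cover counting error only. Bars of SPRY4, SPRED1 and ETV5 overlap slightly between stains in the imatinib run, and DUSP4 and DUSP6 are at or below 5.88% in every group.

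ETV5 (ENSG00000244405, chromosome 3, 185764103 to 185828107, minus strand) encodes an ETS factor of the PEA3 group. ETV5 was detected in the imatinib run in 38 of 50 Green (76%, 61.8 to 86.9) and 24 of 45 Orange libraries (53.3%, 37.9 to 68.3), a difference of -22.7 points matched or exceeded by 0.794% of genes tested. Libraries ranged from 0 to 165 CPM with a median of 13 in Green, and from 0 to 107 with a median of 4.20 in Orange. The stains overlapped, with Orange libraries more often at the low end. The sums were 29.2 CPM (27.9 to 30.6) and 13.9 CPM (13 to 14.9), a ratio of -1.02, and here no library gave more than 14.1% of a sum. Under TMM and DESeq2 scaling the ratio was -0.99, so that it fell just short of -1, and a pseudocount of 10 CPM gave -0.71. The mean of log2 values over libraries gave -0.98 and thinning gave -16.9 points, but with 1 read as the threshold the difference in share was -2.44 points, since 11 libraries of each stain had no read. ETV5 in the benzene run was higher in both stains than in the imatinib run, at 97.3 CPM in Green and 79 in Orange, a ratio of -0.30, with medians of 49.2 and 50.2 CPM.

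ETV4 (ENSG00000175832, chromosome 17, 41605212 to 41656988, minus strand), its close relative, went the other way in the imatinib run. It was detected in 33 of 50 Green and 33 of 45 Orange libraries, with medians of 6.07 and 26.5 CPM and highest values of 343 and 523 CPM. The sums were 38.6 CPM (37.1 to 40.2) and 55.7 CPM (53.7 to 57.6), a ratio of 0.52, and the difference in share was 7.33 points. Libraries of the stains overlapped. Its sums in the benzene run were 61.4 and 39.7 CPM, a ratio of -0.62, and the share was 71% in Green and 79.4% in Orange. With all libraries the ratio became -2.32, because 1 Green library that was not kept held 6213 reads of ETV4. Exons of DHX8 share 1.93% of the exonic bases of ETV4, and those of DGKG 2.84% of ETV5.

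**Figure D4:**
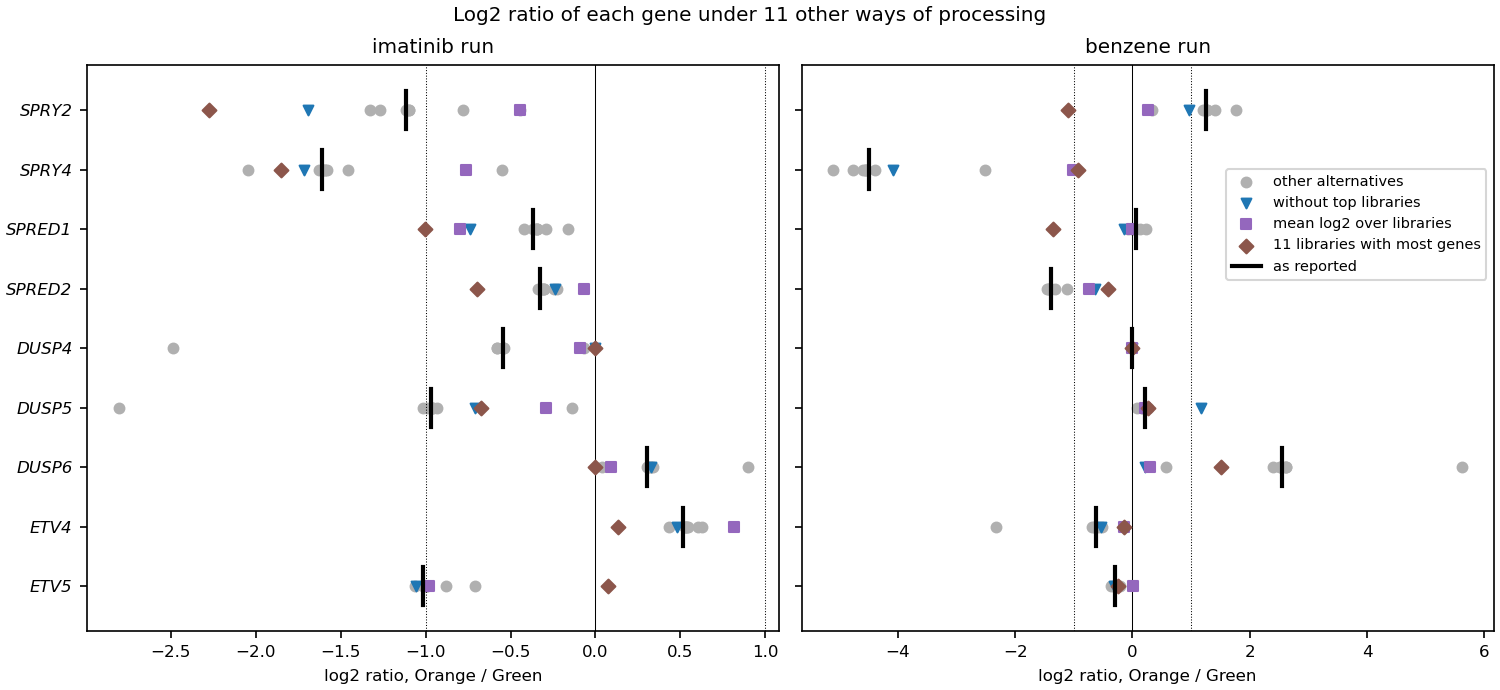
Log2 ratio of each gene, Orange over Green, as reported (black line) and under 11 other ways of processing, in the imatinib run (left) and the benzene run (right). Dotted lines mark -1 and 1. ETV5 and SPRY4 stay below 0 in the imatinib run except for ETV5 in the 11 libraries with the most genes (0.077), and DUSP6 in the benzene run runs from 0.21 to 5.62.

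The 11 libraries with the most detected genes let the sparse genes be read library by library. The limit was chosen after the numbers were seen, with the lowest library inside at 10750 genes and the highest outside at 10215. In their titles they carry the numbers 93 to 96 in the Hoechst run, 92 to 94 in the benzene run and 93 to 96 in the imatinib run. These are the highest numbers among the labelled libraries of each run. Whether these libraries are the bulk samples was not tested. Within the imatinib run SPRY2 was at 6.15 and 8.25 CPM in the 2 Green libraries and at 0.685 and 0.673 CPM in the 2 Orange libraries, and SPRY4 at 5.59 and 4.44 against 1.37 and 0 CPM. The Green libraries were higher for both genes, on 7 to 13 reads each in Green and 0 to 2 in Orange. SPRED1 was at 5.59 and 8.88 CPM in Green and 5.48 and 0.673 in Orange, and SPRED2 at 10.6 and 29.2 against 14.4 and 8.75. ETV4 differed little, at 47 and 45.7 CPM in Green and 48 and 53.9 in Orange. ETV5, for which no single library held more than 14.1% of a sum in this run, was at 8.95 and 15.9 CPM in Green and 11.6 and 14.1 in Orange, with no separation. In the 4 such libraries of the Hoechst run SPRY2 was at 2.55 to 5.68 CPM and SPRY4 at 3.82 to 10.1 CPM. Of the benzene run, 1 Green and 2 Orange libraries were among the 11. SPRY2 was there at 7.73 CPM in Green and 2.32 and 3.95 in Orange, SPRY4 at 13.8 against 3.49 and 10.5, and SPRED1 at 28.4 against 16.8 and 3.29. The Green library was thus the higher for SPRY2, SPRY4 and SPRED1 in this run too, with the ratio of SPRY2 at -1.10 in place of 1.26. That Green side is 1 library, with 9 reads of SPRY2 against 4 and 6 in Orange. SPRED2 was at 24.9 CPM against 23.8 and 12.5, and ETV5 at 55.9 against 42.4 and 52. ETV4 lay between the Orange libraries, at 57.6 against 45.3 and 59.2 CPM. DUSP5 had 1 read in Green and 3 and 1 in Orange. DUSP4 had no read in any of the 11, and DUSP6 had reads in 1, of the benzene Orange group.

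**Figure D5:**
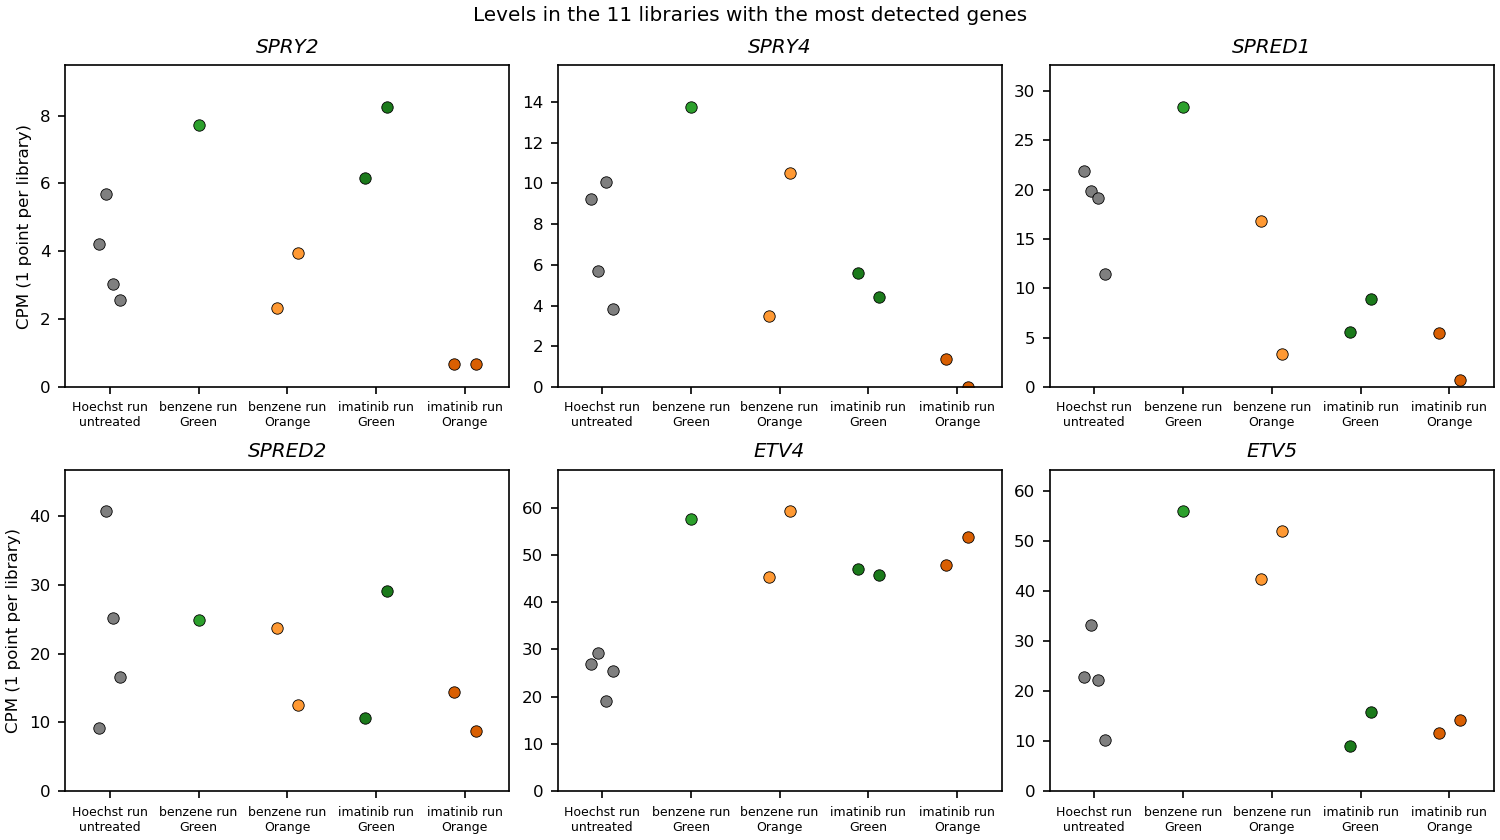
CPM of 6 genes in the 11 libraries with the most detected genes, by run and stain, 1 point per library. In the imatinib run both Orange points lie below both Green points for SPRY2 and SPRY4. For SPRED1 the nearest points are almost level, at 5.48 CPM in Orange and 5.59 in Green, on 8 and 10 reads. The points of ETV5 overlap.

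Other genes of the same pathway were compared in the same way. Of 10 other targets of ERK signalling, 6 were below 0 in the imatinib run. Of the 5 that passed the filter all were below 0, where 52.8% of all genes tested were, and EGR1, FOS and IER2 were at -1 or lower, where 3.83% were. EGR1, an immediate early transcription factor, was at 482 CPM in Green and 178 in Orange (-1.43) and was detected in all 50 Green and all 45 Orange libraries. FOS, a subunit of AP-1, was at 441 and 182 CPM (-1.27), in 48 and 36 libraries, and IER2, another immediate early gene, at 33.7 and 13.6 CPM (-1.24), in 45 and 31. In the libraries with the most genes FOS was at 200 and 366 CPM in Green and 1.37 and 19.5 in Orange of the imatinib run. It was at 4.03 to 10.4 CPM in those of the Hoechst run. Those of the benzene run had 9.45 CPM in Green and 12.8 and 3.29 in Orange. For FOS, both Green libraries of the imatinib run were thus above all the others, treated or untreated. EGR1 differed in this. In the imatinib run it was at 35.2 and 148 CPM in Green and 2.06 and 22.2 in Orange. It was at 132 to 191 CPM in the Hoechst run, and at 159 in Green and 24.4 and 144 in Orange of the benzene run. For EGR1, both Orange libraries of the imatinib run were thus the lowest of these libraries. In the benzene libraries 7 of the 10 were below 0. The 5 that passed were all below 0, where 47.4% of all genes tested were, with FOSL1, an AP-1 subunit, at -2.02.

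Of 11 paralogs of the feedback genes, 5 passed the filter in each run. DUSP1, a nuclear MAP kinase phosphatase, was at 68.4 CPM in Green and 25.9 in Orange of the imatinib run (-1.37), detected in 40 of 50 and 23 of 45 libraries. DUSP10, a phosphatase that acts mainly on JNK and p38, was at 12.2 and 4.59 CPM (-1.24), in 23 and 9 libraries. Of all genes tested in this run, 3.83% were at -1 or lower. No paralog was at 1 or higher, where 3.05% of all genes tested were. Under the benzene labels DUSP7 (3.03) and DUSP10 (1.9) were higher in Orange, where 11.6% of all genes tested were at 1 or higher. DUSP16 (-2.57) and DUSP1 (-1.65) were lower, where 10.6% were at -1 or lower. Differences in share of these genes were at most 6.83 points. Of 26 cascade genes, from BCR and ABL1 to CIC, all passed the filter in the imatinib run. Of these, 0 were at -1 or lower (3.83% of all genes tested). MAPK3 (ERK1) alone was at 1 or higher (3.05%), at 1.63, from 1.62 to 7.09 CPM. For the benzene run 25 passed, of which 4 were at 1 or higher and 3 at -1 or lower, where 11.6% and 10.6% of all genes tested were, so these shares are near the background. The 5 with the largest ratios were MAP2K2 (2.94), ARAF (2.23), BCR (1.73), RASA1 (1.61) and KSR1 (-1.21).

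Correlations between the feedback genes across single untreated libraries were near 0. Over the 10 pairs of SPRY4, SPRED1, SPRED2, ETV4 and ETV5, the median Pearson r of log2(CPM + 1) was 0.056 in 50 Green libraries of the imatinib run, 0.064 in 31 Green libraries of the benzene run and 0.0055 in 82 libraries of the Hoechst run. The highest single pair was 0.217, 0.362 and 0.144. In sparse counts such weak correlations are no finding, and libraries of a run share their preparation and differ in depth. Among 10877 genes, the most like in Green of the imatinib run was COQ6 for SPRY4 (r = 0.57), TBCK for SPRED1 (0.54), SMTN for SPRED2 (0.51), YBX3 for ETV4 (0.59) and SYNGR3 for ETV5 (0.60). The same pairs gave 0.04, 0.34, 0.19, 0.18 and -0.42 in Green of the benzene run, and 0.28, -0.08, -0.05, 0.11 and 0.01 in the Hoechst run. DCBLD2 and CCDC116 came next for SPRY4, FAF1-AS1 and ACTMAP for SPRED1, TMEM245 and GUSBP18 for SPRED2, ENSG00000187951 and BLCAP for ETV4, and TAF11 and SMG5 for ETV5.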

How the data were processed

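The starting point was the authors' deposited count table of K562 libraries, whole numbers of reads per Ensembl gene. The authors trimmed reads with skewer, aligned them with HISAT2 to GRCh37 with ERCC sequences, marked duplicates with Picard 1.92 and counted uniquely mapped reads with featureCounts of Subread 1.5.0. Whether duplicates and strand were used in counting is not given in the sources used here. The deposited CPM table was not used. Single values of some listed genes are not reported here. In the benzene run 4 titles had no column, and a further 4 columns fitted no title and were not used. Gene names and GRCh37 coordinates came from GENCODE v44lift37, a later annotation, in which 55665 identifiers with 99.0% of reads were found.

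The 9 genes, the other lists and the rule for names (all 9 genes, at most 5 per list and run at a ratio of 1 or more either way, and the 3 most like genes) were chosen with earlier results of these data known. Samples were grouped by run and stain from the labels. Reads were summed per group over libraries with at most 70% of gene reads in the top 500 genes, as CPM per 1000000 reads on genes without the 92 ERCC sequences, and compared as log2 ratios with a pseudocount of 1 CPM. Genes tested had more than 2 reads in at least 20% of the libraries of a run. Each group is 1 sample, since the labels name no separate cultures, so no test was run. Exact Poisson and binomial 95% intervals and floors of 3 reads cover counting error only, because reads carry no molecular identifiers. Alternatives were other pseudocounts, filters, libraries and scalings (TMM of edgeR 4.0.16 and size factors of DESeq2 1.42.0, in R 4.3.3). The ratios of sums and the Poisson intervals were tested on simulated data. The ratios were checked there only for genes that passed the filter, so that check does not cover the genes below it. Python 3.11.15, numpy 2.4.6, pandas 2.3.3, scipy 1.17.1 and matplotlib 3.10.9 were used. Motifs were searched in RefSeq promoters of GRCh38.p14, and no coordinates were converted.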

Additional observations from a re-analysis of the deposited data

Results flagged for a closer look

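SPRY2 had log2 ratios of Orange to Green of opposite sign in the CellTracker runs, -1.12 in the imatinib run and 1.26 in the benzene run, each past the fold used. The difference between the runs was not tested, since each run and stain is 1 sample. The gene was detected in 3 of 45 and 8 of 50 libraries of the imatinib run and in 6 of 34 and 3 of 31 of the benzene run. In the 11 libraries with the most detected genes, the ratio was -2.28 in the imatinib run and -1.10 in the benzene run.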

How the results depend on the processing

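No paired analysis was possible because the numbers in the titles only name libraries and no result comes from a test. Of the 9 genes, 7 were below 0 in the imatinib run as reported and 5 to 7 over 11 alternatives, and 4 in the benzene run as reported and 4 to 6. The number at -1 or lower in the imatinib run was 3 as reported, 5 with a pseudocount of 0.1, and 0 with a pseudocount of 10 or with the mean of log2 values over libraries. The median was -0.55 as reported and -1.06, -0.16 and -0.29 under these. Of genes that passed the filter 1 was at -1 or lower, and 3 without the filter. In the benzene run the number at -1 or lower was 2, and 1 without the largest library of each stain or with mean log2 values. The number at 1 or higher was 2, then 1 without the largest libraries or in the 11 libraries with the most genes, and 0 with a pseudocount of 10 or mean log2 values. Of genes that passed the filter 2 were at -1 or lower, and 0 with detection in 50% of libraries. Ratios past 1 in size that changed sign were ETV5 in the imatinib run (0.077) and SPRY2 in the benzene run (-1.10), both in the 11 libraries with the most genes, a setting added after seeing the data. SPRED1 in the benzene run, at 0.06 as reported, was at -1.35 in these 11 libraries and between -0.15 and 0.24 otherwise. The number of genes with a share lower by 20 points or more in the imatinib run was 3 as reported, 1 with thinning (SPRY4), 1 with a threshold of 1 read (SPRED1) and 0 with 10 reads. In the benzene run it was 0, and 1 (SPRED2) without libraries over 9500 genes. The cause was not tested.

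The percent of all genes tested at -1 or lower in the imatinib run fell from 3.83 to 0.554 (pseudocount 10), 1.52 (mean log2) and 1.30 (detection in 50%), and at 1 or higher from 3.05 to 0.342, 0.868 and 0.848, and 1.98 in the 11 libraries with the most genes. In the benzene run it fell from 10.6 to 5.6, 2.99, 4.88 and 6.76, and from 11.6 to 5.77, 5.43, 5.70 and 6.64, in the order pseudocount 10, mean log2, detection in 50% and the 11 libraries. TMM and DESeq2 size factors moved the median of all genes tested by less than 0.1 on the log2 scale. Under them ETV5 in the imatinib run was at -0.99, just short of -1. DUSP4 had no read among 104117693 summed reads of the Hoechst run.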
